A study of Mus musculus with 6 samples.

Results

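Neurexins, neuroligins and the Lrrtm proteins are cell adhesion molecules that organize synapses. The members described here are 9 genes of these families, *Nrxn2*, *Nrxn3*, *Nlgn1*, *Nlgn2*, *Nlgn3*, *Lrrtm1*, *Lrrtm2*, *Lrrtm3* and *Lrrtm4*, chosen by symbol. All 9 were found among the 15168 genes of the deposited table, and all 9 were among the 15102 genes that passed the filter on low values. Bulk RNA-seq was performed on the lateral ganglionic eminence (LGE), the embryonic primordium of the striatum, of mice at E16.5. The control group held 3 *Dlx5/6-CIE* libraries, which carry a Cre-IRES-EGFP transgene active in LGE progenitors. The overexpression group held 3 *Dlx5/6-CIE; Rosa-Sp9-OE/+* libraries, which also carry a *Rosa26* allele with a CAG promoter, a floxed LacZ-STOP cassette and the coding sequence of the transcription factor *Sp9*. By this strategy Cre-positive cells express *Sp9* and Cre-negative cells of the same dissection express LacZ, and the control libraries lack the allele. The mice were of mixed C57BL/6J, 129S6 and CD1 background, and the controls were littermates. The study describes its replicates as animals, but no label ties a library to an embryo, so a p-value here covers the spread among the libraries alone.

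Neurexins sit on the presynaptic side and bind several kinds of partner across the cleft. Neuroligins are postsynaptic neurexin receptors, of which *Nlgn1* is best known at excitatory synapses, *Nlgn2* at inhibitory synapses and *Nlgn3* at both. The Lrrtm proteins are leucine-rich repeat proteins of the postsynaptic membrane at excitatory synapses, and *Lrrtm4* also binds heparan sulfate proteoglycans such as glypicans. Medium spiny neurons (MSNs), the main neurons of the striatum, release GABA, receive excitatory input from cortex and thalamus and form most of their synapses after birth. The comparison asked whether sustained *Sp9* changed the RNA level of these genes in the LGE.

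Values are CPM, the authors' read counts per gene relative to a scaled library total. From 19410365 to 25126847 reads in listed genes were recovered per library. Values of a group are given in the order of replicates 1, 2 and 3. *Sp9* was at 149 ± 20.2 CPM (SD, n = 3) for control libraries and at 250 ± 65.2 CPM (SD, n = 3) with overexpression. The 3 overexpression libraries, at 178, 268 and 305 CPM, lay above the controls, at 130, 147 and 170 CPM, with a log2 fold change of 0.72 that did not pass the threshold (adjusted p = 0.788 from limma). Control replicates 1 and 2 stood apart from all other libraries in sex-linked genes, with *Xist*, the RNA of the inactive X chromosome, at 2227 and 2191 CPM against 1.37 to 2.35 CPM. *Kdm5d*, a gene of the Y chromosome, was at 0.1 and 0.05 CPM in those libraries and at 73.7 to 80.6 CPM in all others. The labels give no sex, but by these values control replicates 1 and 2 are female and the other libraries male. Genotype is therefore partly confounded with sex in the comparison of all 6 libraries. Tissue was profiled in bulk, so fewer cells of a type and less RNA per cell cannot be told apart for any gene below. Control replicate 1 also had the highest summed level of 7 pyramidal neuron markers, at 100 CPM, against 47.2 CPM in control replicate 2, 11.1 CPM in control replicate 3 and 31 to 46 CPM in *Sp9*-overexpressing libraries. The markers of the labelled tissue were detected, with a summed level of 1955 to 3067 CPM for 8 genes of MSNs of both types. By value 7 of those 8 were higher with overexpression (median log2 fold change 0.29), as were 8 of 8 markers of D2-type MSNs (0.60), while 6 of 7 of D1-type MSNs (-0.22), 5 of 6 of radial glia (-0.12) and 7 of 7 of microglia (-0.87) were lower. Control replicate 1 was the highest control in 7 of 7 D1-type markers, 6 of 8 D2-type markers and 7 of 8 markers of both types. *Tac1* was at 38.7, 12.2 and 13.8 CPM in control libraries and at 15.8, 13 and 12.5 CPM with overexpression, with overlap. *Drd1* was at 15.7, 7 and 8.3 CPM and at 2.1, 3 and 3.5 CPM, without overlap. No marker on these lists passed the threshold by limma, and their part in the results below was not tested.

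The sequences are shown because each precedes an annotated start, of the member that separated the groups and of the most abundant member. RefSeq promoters on GRCm38.p6 were matched for 6 of the 9 members, with 10 annotated starts. SP9 belongs to the Sp family of zinc finger factors, which is known for binding GC-rich boxes, so the letters GGGCGG were searched on both strands in the window from 250 bases before to 50 bases after each start. The motif was present in 35.7% of the 32851 promoters in the table. *Nlgn2* had 3 matches, which begin 185, 78 and 24 bases before the start. *Nrxn3* has 3 annotated starts, and the last of them, whose upstream sequence is shown, had no match in its window. Levels here are per gene, so which of the 3 starts was used in the LGE is not known. The lower-case runs below are the 250 bases before the start, with matches to the motif in capitals, for *Nlgn2* at chr11:69837785-69838034 on the minus strand and for *Nrxn3* at chr12:89812233-89812482 on the plus strand.
Nlgn2: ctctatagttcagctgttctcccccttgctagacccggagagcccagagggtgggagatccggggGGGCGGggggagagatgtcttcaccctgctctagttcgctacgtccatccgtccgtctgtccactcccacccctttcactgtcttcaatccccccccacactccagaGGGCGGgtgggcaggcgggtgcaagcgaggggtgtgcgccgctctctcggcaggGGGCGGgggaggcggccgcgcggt
Nrxn3: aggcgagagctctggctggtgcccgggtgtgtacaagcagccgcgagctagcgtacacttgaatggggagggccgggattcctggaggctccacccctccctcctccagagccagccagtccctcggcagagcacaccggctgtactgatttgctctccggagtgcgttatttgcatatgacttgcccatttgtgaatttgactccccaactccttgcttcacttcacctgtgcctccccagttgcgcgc
A match is a description of the letters only, and no binding was measured. Of the other starts, 1 of *Lrrtm1* and 1 of *Nrxn3* held 1 match each that overlapped or followed the start.

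*Nrxn3* (ENSMUSG00000066392), a neurexin gene on chromosome 12 from 88722876 to 90334935 of GRCm38 (mm10), was the member with the largest log2 fold change over all 6 libraries. Its level was 214, 184 and 217 CPM in control replicates 1, 2 and 3, and 231, 239 and 265 CPM in overexpression replicates 1, 2 and 3. Every overexpression library lay above every control, with 14.4 CPM between the lowest of the former and the highest of the latter. The mean was 205 ± 18.4 CPM (SD, n = 3) for control libraries and 245 ± 17.5 CPM (SD, n = 3) with overexpression, which is 19.6% higher. The log2 fold change from limma, on log2(CPM + 0.5), was 0.26 with a standard error of 0.08. It did not pass 0.05 over all genes (adjusted p = 0.788 from limma, unadjusted p = 0.0126). Counts recovered from the CPM gave an adjusted p of 0.805 from edgeR's quasi-likelihood test and 0.504 from DESeq2. Against control replicate 3 alone, the only control with low *Xist*, the log2 difference was 0.17, and with the 8 neuron markers as the scale it was 0.18 (unadjusted p of 0.116 and 0.0626 from limma).

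*Nrxn2* (ENSMUSG00000033768), the other neurexin listed, lies on chromosome 19 from 6418731 to 6544169. Its level was 252, 206 and 197 CPM across control replicates 1, 2 and 3, and 231, 224 and 243 CPM in the overexpression libraries. Control replicate 1 was the highest of all 6 and the other controls were the lowest, so the groups overlapped. On the log2 scale the difference was 0.10 with a standard error of 0.09 (adjusted p = 0.82 from limma). Without control replicate 1 it was 0.21 (adjusted p = 0.258, unadjusted p = 0.00788 from limma), while it was 0.06 without control replicate 2, 0.03 without control replicate 3 and 0.02 with neuron markers as the scale. An antisense gene, *Gm14964*, shares 207 exon bases with *Nrxn2* and was at 4.41 to 5.33 CPM. The library kit keeps strand, but no source used here says whether counting did, and the same holds for every antisense pair named here.

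The ratio of *Nrxn3* to *Nrxn2*, each as CPM per kb of annotated exon, was 0.931, 0.977 and 1.21 for control replicates 1 to 3, and 1.10, 1.17 and 1.19 with overexpression. The ratio in control replicate 3 was therefore above all overexpression libraries. The summed level of both neurexins was 466, 389 and 414 CPM in the controls and 462, 463 and 507 CPM with overexpression, also with overlap. Levels are sums over a gene's transcripts, so the long and short neurexin forms and their splice variants are not separated.

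**Figure D1:**
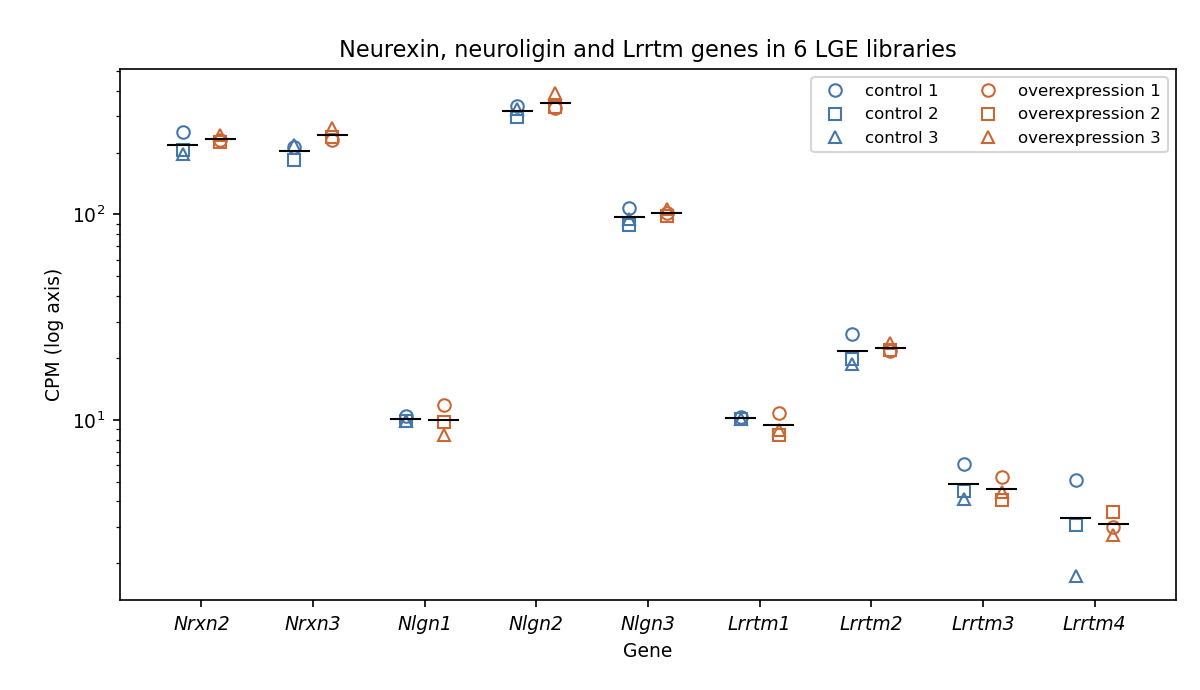
Level of the 9 genes in CPM, on a log axis, for the 3 control libraries (blue) and the 3 overexpression libraries (orange), with the replicate number as the symbol and the group mean as a bar. *Nrxn3* is the only member whose groups do not overlap, with controls from 184 to 217 CPM and overexpression libraries from 231 to 265 CPM, and *Lrrtm4* has the widest spread, from 1.73 to 5.11 CPM among the controls.

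*Nlgn2* (ENSMUSG00000051790), the neuroligin of inhibitory synapses, lies on chromosome 11 from 69823122 to 69837784. It was at 339, 297 and 326 CPM in control libraries and at 329, 333 and 390 CPM in the overexpression libraries. Overexpression replicates 1 and 2 fell within the control range and only replicate 3 stood above it. The mean was 321 ± 21.6 CPM (SD, n = 3) for control libraries and 351 ± 34 CPM (SD, n = 3) with overexpression. The log2 fold change was 0.13 with a standard error of 0.08 and a 95% interval from -0.06 to 0.31 (adjusted p = 0.789 from limma), and it was 0.05 without overexpression replicate 3.

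*Nlgn3* (ENSMUSG00000031302) is X-linked, from 101299168 to 101325963. Its level was 108 and 89 CPM for control replicates 1 and 2, which have high *Xist*, and 95.3 CPM for control replicate 3, so the control with low *Xist* lay between the others. The overexpression libraries were at 101, 98.2 and 106 CPM, within the control range. On the log2 scale the difference was 0.07 with a standard error of 0.08 (adjusted p = 0.844 from limma). *Gm21986*, a transcript on the same strand that shares 3823 exon bases with *Nlgn3*, was listed at 4.81 to 13.1 CPM, so the division of reads between them is uncertain.

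*Nlgn1* (ENSMUSG00000063887), the neuroligin of excitatory synapses, lies on chromosome 3 from 25426215 to 26332460. The controls were close together, at 10.5, 9.9 and 9.81 CPM, while the overexpression libraries spread from 8.42 CPM in replicate 3 through 9.72 CPM in replicate 2 to 11.8 CPM in replicate 1. The groups overlapped and their means were nearly equal, at 10.1 ± 0.361 and 9.97 ± 1.68 CPM (SD, n = 3 each). The log2 fold change was -0.02 with a 95% interval from -0.33 to 0.28 (adjusted p = 0.97 from limma). The 6 libraries held 186 to 301 *Nlgn1* reads, against 5966 to 8611 for *Nlgn2*.

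*Nlgn2* held 82.5 to 84.8% of the neuroligin total per kb of exon in each of the 6 libraries. *Nlgn3* held 14.4 to 16.4% and *Nlgn1* 0.789 to 1.28%. The lowest *Nlgn1* share and the highest *Nlgn2* share were both in overexpression replicate 3. This library had the lowest summed level of 7 microglia markers, at 84.4 CPM against 231 to 365 CPM elsewhere. It was also the lowest in radial glia markers (1892 CPM) and the highest in markers of neurons (6092 CPM) and of MSNs of both types (3067 CPM). The part of any of these cells in the shares was not tested. The ratio of *Nlgn2* to *Nlgn1* per kb was 75, 69.6 and 77.2 for the 3 control libraries, and 64.9, 79.5 and 107 with overexpression, and these ranges overlapped.

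*Lrrtm2* (ENSMUSG00000071862), a neurexin ligand of excitatory synapses, lies on chromosome 18 from 35209003 to 35215024. It was at 26.3, 19.8 and 18.6 CPM in control libraries and at 21.6, 21.8 and 23.7 CPM in *Sp9*-overexpressing libraries. The overexpression libraries lay inside the control range, above control replicates 2 and 3 and below control replicate 1. On the log2 scale the difference was 0.07 with a standard error of 0.13 (adjusted p = 0.908 from limma). It was 0.22 without control replicate 1 and -0.03 without control replicate 3.

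*Lrrtm1* (ENSMUSG00000060780), another neurexin ligand, lies on chromosome 6 from 77242689 to 77257791. The controls were at 10.3, 10.1 and 10.1 CPM, the least variable of any member. They rest on 205, 203 and 227 reads. The 95% Poisson interval of control replicate 1, which covers counting error only, was 8.92 to 11.8 CPM and so wider than their spread. Overexpression replicate 1 was above them at 10.8 CPM and replicates 2 and 3 were below them at 8.47 and 8.91 CPM. The log2 fold change was -0.11 with a 95% interval from -0.38 to 0.16 (adjusted p = 0.836 from limma). *Lrrtm1* kept this direction in all 17 alternatives, from -0.21 to -0.04.

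*Lrrtm3* (ENSMUSG00000042846), on chromosome 10 from 63928472 to 64090277, was at 6.07, 4.48 and 4.13 CPM in control libraries and at 5.23, 4.08 and 4.43 CPM with overexpression. Control replicate 1 was the highest library and the others overlapped. Its log2 fold change was -0.07 with a standard error of 0.17 (adjusted p = 0.925 from limma), on 90 to 134 reads per library.

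*Lrrtm4* (ENSMUSG00000052581), the glypican-binding member, lies on chromosome 6 from 80018877 to 80810143. It was at 5.11, 3.08 and 1.73 CPM in control libraries and at 3.01, 3.54 and 2.76 CPM in *Sp9*-overexpressing libraries. The controls enclosed the whole overexpression group. On 102 reads in control replicate 1 and 39 in control replicate 3, the 95% Poisson intervals of 4.17 to 6.21 CPM and 1.23 to 2.37 CPM did not overlap, and these intervals cover counting error only. The order of the controls was that of their pyramidal neuron markers, with the marker sum at 100, 47.2 and 11.1 CPM, and the overexpression libraries lay between the extremes in both measures. The part of those cells in the *Lrrtm4* level was not tested. On the log2 scale the difference was 0.01 with a 95% interval from -0.70 to 0.73 (adjusted p = 0.994 from limma), while the overexpression mean of CPM was lower, at 3.10 against 3.31 CPM. Against control replicate 3 alone it was 0.69 (unadjusted p = 0.025, adjusted p = 0.749 from limma), and without control replicate 3 it was -0.32.

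The *Lrrtm* genes *Lrrtm1*, *Lrrtm2* and *Lrrtm3* lie inside alpha-catenin genes, on the opposite strand, in *Ctnna2*, *Ctnna1* and *Ctnna3*. *Ctnna1* shares 95 exon bases with *Lrrtm2*, and the other host pairs share none. *Ctnna2* was at 250, 223 and 231 CPM in control libraries and at 253, 252 and 282 CPM with overexpression, without overlap, while *Lrrtm1* inside it overlapped. Its log2 fold change was 0.16 (adjusted p = 0.788 from limma). *Ctnna1* was at 155 to 182 CPM in control libraries and at 155 to 165 CPM in *Sp9*-overexpressing libraries, with a log2 fold change of -0.07 (adjusted p = 0.82 from limma) that was -0.13 without control replicate 1. *Ctnna3* was not among the genes compared. *Lrrtm1* and *Lrrtm4* lie 35.8 and 32.3 Mb from *Gt(ROSA)26Sor*, which marks the knock-in site, on the same chromosome.

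Between genes, levels were compared as CPM per kb of the union of annotated exons. *Nlgn2* was the highest, at 51.3 to 67.4 CPM per kb over the 6 libraries. *Nrxn3*, at 14.6 to 21 CPM per kb, and *Nrxn2*, at 14.3 to 18.2 CPM per kb, came next with overlapping ranges. *Nlgn3* followed at 9.6 to 11.6 CPM per kb, below both neurexins in every library. *Lrrtm2*, at 3.09 to 4.36 CPM per kb, and *Lrrtm1*, at 2.79 to 3.57 CPM per kb, overlapped. *Lrrtm3* was at 0.959 to 1.43 CPM per kb. *Nlgn1*, at 0.627 to 0.876 CPM per kb, and *Lrrtm4*, at 0.282 to 0.832 CPM per kb, overlapped at the low end. The genes best known at excitatory synapses, *Nlgn1* and the *Lrrtm* genes, were thus all at the lower end of this order and below *Nlgn3* in every library. The order depends on the annotated exons, of which *Nlgn1* has 13.4 kb and *Nlgn2* 5.79 kb.

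Counted together, 0 of the 9 members passed an adjusted p of 0.05 by limma, by edgeR's quasi-likelihood test or by DESeq2, where limma called 0.0265% of all genes (4 of 15102, 0.0199% higher and 0.00662% lower), edgeR 0.0331% and DESeq2 0.225%. At an unadjusted p under 0.05 from limma, 1 member, *Nrxn3*, was higher and 0 were lower, where 5.52% of all genes passed, 2.68% higher and 2.84% lower. The same member was the 1 higher by edgeR, against 2.56% of all genes, and by DESeq2, against 2.4%. The groups did not overlap in 1 of 9 members (11.1%), again *Nrxn3*, where this was so in 11.2% of all genes, 5.46% higher and 5.73% lower, so the share was near the background. By value 6 members were higher and 3 lower with overexpression, and 50.2% of all genes were higher. The median log2 fold change was 0.07 over the members and 0.00 over all genes. The 95% intervals limit what these libraries could show, since they reach a fold of 1.24 for *Nrxn2* and *Nlgn2*, 1.36 for *Nrxn3* and 1.66 for *Lrrtm4*.

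Control replicate 1 was the highest control in 8 of the 9 members, and *Nrxn3*, highest in control replicate 3, was the exception. The same library was the highest of all 6 in 5 members, *Nrxn2*, *Nlgn3*, *Lrrtm2*, *Lrrtm3* and *Lrrtm4*. Overexpression replicate 3 was the highest of its group in 5 members. The summed level of 8 neuron markers was 5468, 4791 and 5253 CPM in the controls and 5261, 5337 and 6092 CPM with overexpression, so these libraries were also the highest of their groups in neuron markers. Control replicate 2 was the lowest in neuron markers and was the lowest of the 6 libraries in *Nrxn3*, *Nlgn2* and *Nlgn3*. Control replicate 3 was the lowest in as many members, *Nrxn2*, *Lrrtm2* and *Lrrtm4*. In the mean log2 deviation of the neuron markers it was at -0.06, between control replicate 2 (-0.17) and control replicate 1 (0.12). The part of neuron content in the members' levels was not tested.

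**Figure D2:**
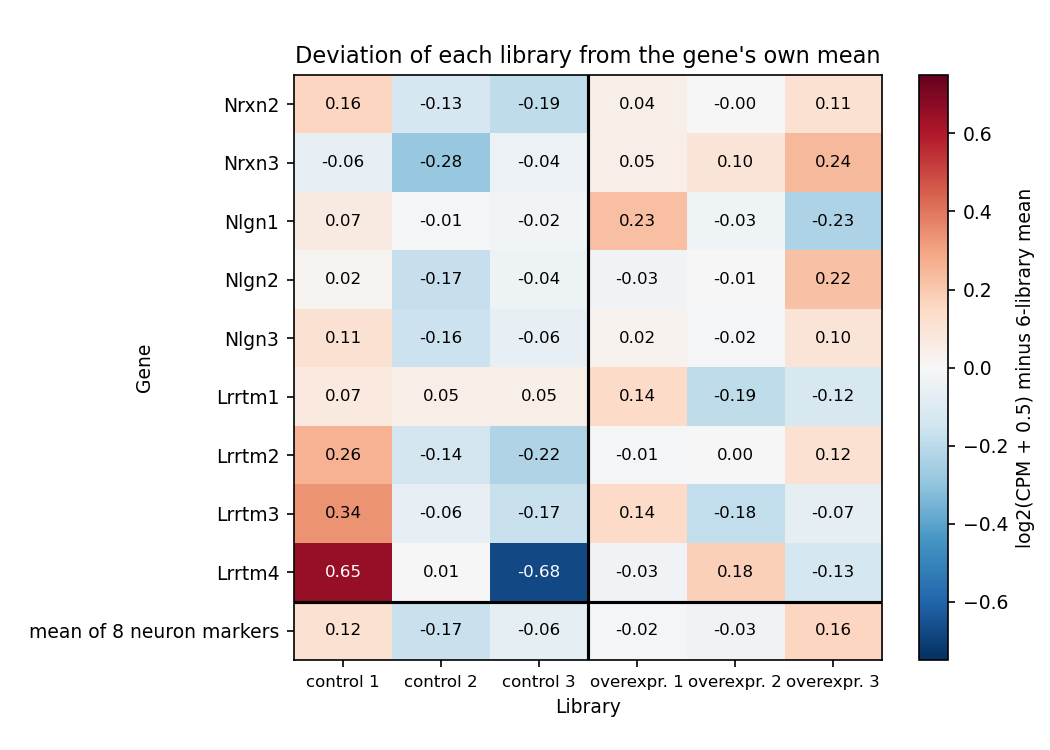
Deviation of each library (columns) from the gene's own mean over the 6 libraries on the log2(CPM + 0.5) scale, for the 9 genes (rows) and for the mean of 8 neuron markers (last row). Control replicate 1 is above the mean in 8 of 9 genes, by up to 0.65 for *Lrrtm4*, and the neuron markers are highest in overexpression replicate 3 (0.16) and control replicate 1 (0.12).

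Control replicate 1 was the highest control in 8 of the 9 members, so leaving it out had to raise their log2 fold changes. Leaving out control replicate 2, or control replicate 3, gave 1 member at an unadjusted p under 0.05 from limma and 1 without overlap. Without control replicate 1, 8 of the 9 members were higher by value in the overexpression group, where 49.9% of all genes were. Of these, 5 had groups that did not overlap, *Nrxn2*, *Nrxn3*, *Nlgn2*, *Nlgn3* and *Lrrtm2*, where this was so in 17% of all genes for 3 libraries against 2. At an unadjusted p under 0.05 from limma 4 members were higher, against 7.41% of all genes, and 0 passed after adjustment (lowest adjusted p = 0.258), where 0.0996% of all genes did. The 4 were *Nrxn2*, *Nrxn3*, *Nlgn3* and *Lrrtm2*, with log2 fold changes of 0.21, 0.29, 0.14 and 0.22. Among the libraries with low *Xist*, 3 overexpression libraries against control replicate 3, 6 of 9 members lay above the control in every overexpression library, where 27% of all genes did. In that comparison 2 members had an unadjusted p under 0.05, *Nrxn2* and *Lrrtm4*, against 3.68% of all genes, and the lone control was assumed to vary like the overexpression libraries. With the *Xist* level as a covariate 1 member, *Lrrtm4*, was higher at that unadjusted p, against 1.83% of all genes. With each library scaled by its neuron markers, 3 of 9 members were higher by value, where 26% of all genes were. The median over the members was -0.01 and 0 had an unadjusted p under 0.05, a threshold at which 0.748% of all genes were higher. This scale lowers the log2 fold change of every gene by the same amount, so the members keep their place relative to all genes.

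**Figure D3:**
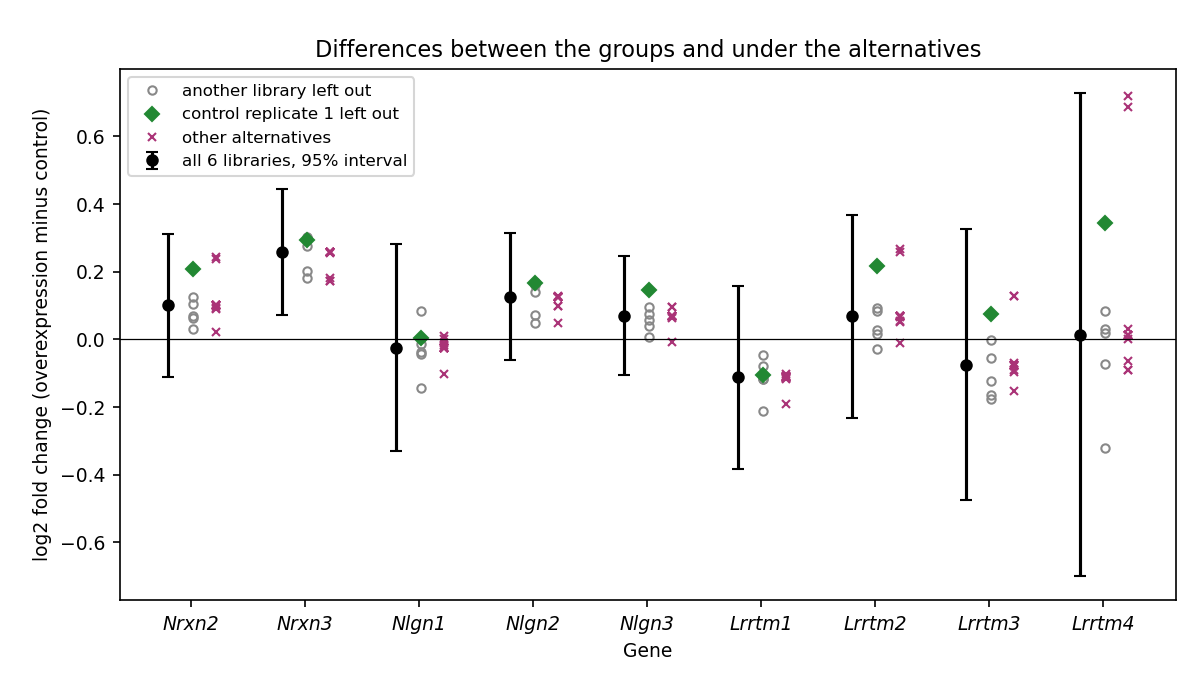
Log2 fold change of each gene, overexpression minus control, from limma with all 6 libraries (black, 95% interval), with control replicate 1 left out (green), with another library left out (grey) and under the other alternatives (purple). The interval of *Nrxn3* runs from 0.07 to 0.45 before adjustment for the number of genes and those of the other 8 genes include 0, and leaving out control replicate 1 moves *Nrxn2* to 0.21 and *Lrrtm4* to 0.34.

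The partners of these proteins were described from 7 lists of synaptic genes and 1 of host catenins, of which 86 genes were compared. By limma, edgeR and DESeq2 0 of the 86 passed an adjusted p of 0.05. At an unadjusted p under 0.05 from limma 12 were higher and 1 was lower, against 2.68% and 2.84% of all genes, and in 10 the overexpression group lay wholly above the controls, against 5.46% of all genes. The median log2 fold change was 0.08. Without control replicate 1 there were 30 higher and 1 lower at that p, against 7.41% and 6.02% of all genes, and 0 after adjustment. This library was the highest control in 7 of the 8 neuron markers. For the lists, counts with another library left out are not given here. With neuron markers as the scale there were 4 higher, against 0.748% of all genes, and 45 of 86 were higher by value, against 26%. The median was 0.01, on a scale that lowers the log2 fold change of every gene by the same amount.

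Of the other neurexin ligands 9 were compared. Of these 1 was higher at an unadjusted p under 0.05 from limma, against 2.68% of all genes, and 0 after adjustment. *Adgrl1*, a latrophilin, was at 500.03 ± 33.9 CPM in control tissue and 551 ± 51.8 CPM in *Sp9*-overexpressing libraries (SD, n = 3 each). *Cbln1*, a secreted cerebellin that bridges neurexins to delta receptors, was at 11.2 ± 1.98 and 13.2 ± 2.07 CPM, and *Nxph1*, a secreted neurexophilin, at 25.5 ± 2.33 and 23.8 ± 2.05 CPM (SD, n = 3 each). All 3 overlapped between the groups. The gene below the unadjusted threshold was *Nxph2*, at a mean of 0.488 and 1.20 CPM, which lies outside the rule for named genes and was chosen after its values were seen. For the delta receptor gene *Grid1* limma gave a log2 fold change of -0.14, which was -0.03 without control replicate 1. In the fit that left out this library the ligands higher at an unadjusted p under 0.05 numbered 2, against 7.41% of all genes.

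Of 18 postsynaptic scaffold genes, 17 were higher by value, where 50.2% of all genes were, 5 were higher at an unadjusted p under 0.05 from limma, against 2.68% of all genes, and 0 passed after adjustment. The 8 neuron markers, of which 6 were higher by value (median log2 fold change 0.08), and the MSN, radial glia and microglia markers given above moved beside them, and their part was not tested. *Lhfpl4*, which links GABA-A receptors to neuroligin-2, was at 121 ± 9.97 CPM in the controls and 145 ± 13 CPM with overexpression (SD, n = 3 each), without overlap. It lies 0.0908 Mb from *Gt(ROSA)26Sor*, so a difference at the knock-in allele and one in the scaffold cannot be told apart for it. *Dlgap2*, a scaffold that binds PSD-95, was at 6.30 ± 0.8 and 8.39 ± 1.21 CPM (SD, n = 3 each), also without overlap. The log2 fold changes of *Lhfpl4* and *Dlgap2* were 0.26 and 0.39, with an adjusted p of 0.788 for each from limma. Without control replicate 1 there were 11 scaffold genes higher at that unadjusted p, against 7.41% of all genes. With neuron markers as the scale there were 0, against 0.748%, while 14 of the 18 were higher by value, against 26% of all genes.

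The presynaptic scaffolds that bind the neurexin tail or its partners counted 6 of 7 higher by value, against 50.2% of all genes. Their median log2 fold change was 0.05 and 0 had an unadjusted p under 0.05 from limma, against 5.52% of all genes. Without control replicate 1 there were 2 higher and 1 lower at that p, against 7.41% and 6.02% of all genes, and the log2 fold change of *Apba1* was 0.26 against 0.09 with all libraries. *Lin7c* was at 171 ± 10.9 and 186 ± 8.87 CPM and *Apba1* at 66.9 ± 14.3 and 70.3 ± 1.75 CPM (both SD, n = 3), with overlapping groups. *Mdga1*, whose protein blocks neuroligins from binding neurexins, was at 47.8, 39.2 and 32.5 CPM in control libraries and at 34, 34.2 and 27.3 CPM in *Sp9*-overexpressing libraries, with overlap and a log2 fold change of -0.31 (adjusted p = 0.788 from limma). *Mdga2* differed by -0.04 on the same scale. Leaving out control replicate 1 gave -0.17 for *Mdga1* and 0.19, in the other direction, for *Mdga2*. Of 6 glypican genes 3 were higher and 3 lower by value, and *Gpc4*, a ligand of *Lrrtm4*, was at 26.1 ± 3.21 and 23.8 ± 0.993 CPM (both SD, n = 3), with overlapping groups.

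Among 40 other synaptic adhesion genes 5 were higher and 1 was lower at an unadjusted p under 0.05 from limma, against 2.68% and 2.84% of all genes, and 0 passed after adjustment. *Igsf9b*, an adhesion protein of inhibitory synapses, was at 64.7, 53.4 and 57.7 CPM in control libraries and at 71.8, 71.1 and 82.1 CPM with overexpression, without overlap. *Tenm2*, a teneurin, was at 131 ± 18.7 and 157 ± 9.17 CPM and overlapped, and *Lrfn2* was at 8.45 ± 1.57 and 12 ± 2.79 CPM without overlap (SD, n = 3 each). *Lrfn5*, of the same family as *Lrfn2*, was at 16.6, 11 and 9.77 CPM in control libraries and at 9.96, 6.41 and 6.34 CPM in *Sp9*-overexpressing libraries. For *Lrfn5* overexpression replicate 1 lay above control replicate 3, so the groups overlapped. For these 4 the log2 fold changes were 0.35, 0.27, 0.48 and -0.68, with an adjusted p of 0.788 for each from limma. Without control replicate 1 there were 14 higher at an unadjusted p under 0.05, against 7.41% of all genes, and with neuron markers as the scale there were 3, against 0.748%.

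**Figure D4:**
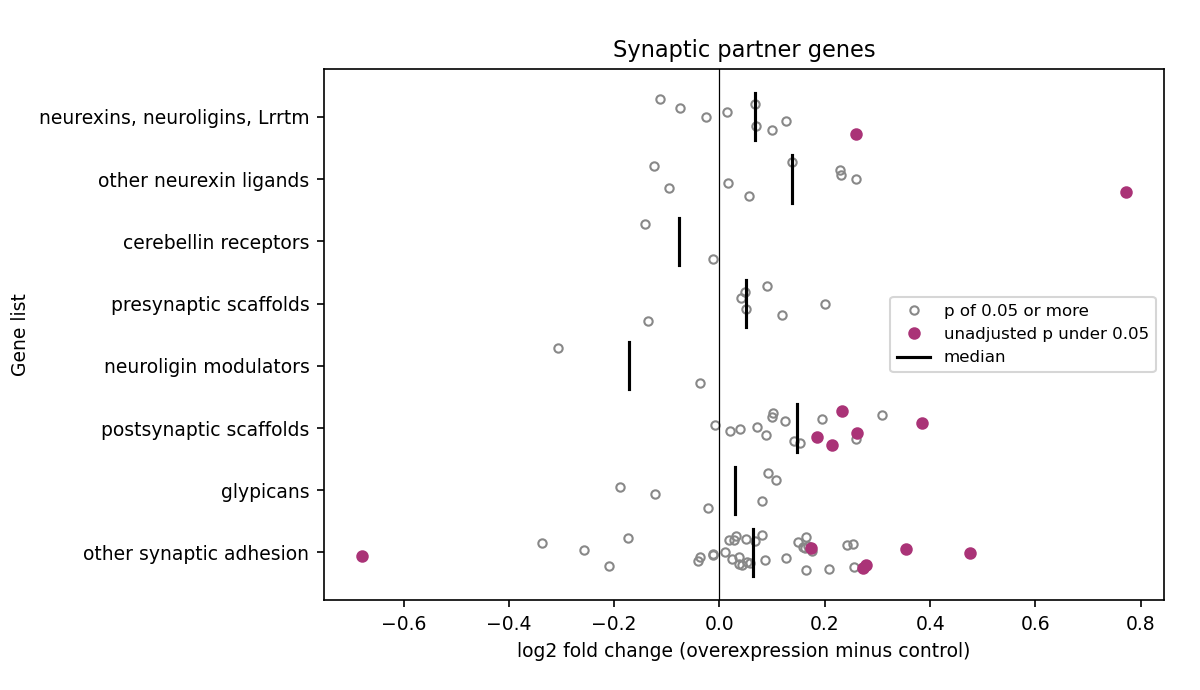
Log2 fold change, overexpression minus control, of each compared gene in the 9-gene set (top row) and in 7 lists of synaptic partners, with the list's median as a bar and genes at an unadjusted p under 0.05 from limma filled. The medians run from -0.17 for the 2 neuroligin modulators to 0.15 for the 18 postsynaptic scaffolds, and no gene shown passed an adjusted p of 0.05.

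Among 9709 other genes with a mean of at least 10 CPM, those whose log2 deviations over the 6 libraries were most like the mean deviation of the 9 members were *Pnck*, *Plppr2*, *Cspg5*, *Slc19a1* and *Fyn*, with root mean square differences of 0.02 to 0.03 on the log2 scale. The mean deviation of the members was 0.18, -0.10 and -0.15 for control replicates 1, 2 and 3, and 0.06, -0.02 and 0.03 with overexpression. Each member has the same weight in it. *Lrrtm4*, the member with the fewest reads, deviated most, by 0.65 in control replicate 1 and -0.68 in control replicate 3. *Plppr2*, for example, was at 87.4, 71.5 and 70.5 CPM in control libraries and at 79.3, 77.4 and 80.1 CPM with overexpression. Control replicate 1 was its highest library, as in the profile it was chosen to resemble.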

How the data were processed

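Conditions and replicate numbers were taken from the submitters' sample labels. RNA was prepared by the authors with a stranded total RNA kit after removal of ribosomal RNA. The submitters' processing notes name mm10. Aligner and counting tool: not given in the sources used here. Values the authors deposited are CPM, 1 per gene and library, and sum to 965678 to 1014636 over the listed genes. The table also holds the mean level, fold change and p-values of the authors' own comparison, which were not used.

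CPM values were whole multiples of 1 read in 100% of values (tolerance 0.0005 CPM plus a relative error of 2e-06), and the recovered counts were used for edgeR, which called 5 genes, and DESeq2, which called 34, as alternatives. Replicates differed by more than sampling noise (chi-square of 5.74 to 17.5 per degree of freedom). Genes with at least 0.5 CPM in at least 3 libraries were kept and tested by limma 3.58.1 (R 4.3.3, intensity trend, two-sided) on log2(CPM + 0.5), a scale that understates changes of low genes, with genotype as the only term and Benjamini-Hochberg adjustment over 15102 genes. The procedure was tested on simulated data.

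Also run were a fit blocked on replicate number, fits leaving out 1 library at a time, low-*Xist* libraries only, the *Xist* level as a covariate, no filter, a filter at 1 CPM, pseudocounts of 0.1 and of 1, size factors by median of ratios, edgeR 4.0.16 and DESeq2 1.42.0, and an adjusted p of 0.1. Scaling to neuron markers was added after the data were seen. Coordinates and exon lengths are from GENCODE M21 on GRCm38 (mm10), and promoter sequences from RefSeq on GRCm38.p6. The members and lists were chosen with earlier results of these data known. Named genes are all members, host genes and up to 4 genes per list with the smallest p and a mean of at least 1 CPM. Up to 5 genes with the most similar pattern are also named, as are *Sp9*, *Gt(ROSA)26Sor*, *Xist* and *Kdm5d*. Of overlapping genes *Gm14964* and *Gm21986* are named. Some genes that this rule selects are not reported here.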

Additional observations from a re-analysis of the deposited data

How the results depend on the processing

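None of the 9 genes passed an adjusted p of 0.05 in any of 17 alternatives, and of 153 values 138 kept their direction. The count of all genes past the threshold, 4 with all libraries, was 34 with DESeq2 and ran from 3 to 15 when 1 library was left out. The count of members at an unadjusted p under 0.05, 1 with all libraries, was 2 in low-*Xist* libraries, 0 with neuron-marker scaling and 1 to 4 with 1 library left out. The count of members without overlap was 6 in low-*Xist* libraries and 1 to 5 with 1 library left out. Log2 fold changes that turned direction were those of *Nlgn1* (0.0091 in low-*Xist* libraries, 0.00065 with the *Xist* covariate, -0.15 to 0.084 with 1 library left out), *Nlgn3* (-0.0078 with neuron-marker scaling), *Lrrtm2* (-0.0097 with neuron-marker scaling, -0.027 to 0.22 with 1 left out), *Lrrtm3* (0.13 in both *Xist* alternatives, -0.18 to 0.076 with 1 left out) and *Lrrtm4* (-0.092 with edgeR, -0.090 with DESeq2, -0.064 with neuron-marker scaling, -0.32 to 0.34 with 1 left out). The cause was not tested. With the replicate number as a block, 0 members passed (adjusted p = 0.708 from limma for *Nrxn3*). In this balanced design a block cannot change the log2 fold change, 0.26 for *Nrxn3*, and neither can the filter settings. The members' values under these settings, counted among the 138, therefore kept their direction by construction. Deviations from the group means had correlations of -0.10, 0.20 and 0.08 between same-numbered libraries, and of -0.26 to 0.15 between the others. With 3 libraries per group this cannot settle whether the numbers pair the libraries. Reads per library, 39 to 134 for *Lrrtm3* and *Lrrtm4*, limit their precision.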
